A study of Homo sapiens with 2 samples.

Results

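The cytochrome P450 enzymes (CYP), the UDP-glucuronosyltransferases (UGT) and the cytosolic sulfotransferases (SULT) were examined in ALDH+ and ALDH- cells of RMG1, an established cell line of ovarian clear cell adenocarcinoma. Members were all genes on the array whose name begins with CYP, UGT or SULT followed by a number, without the retinoic acid hydroxylases of the CYP26 family. They comprised 77 genes (52 CYP, 13 UGT and 12 SULT) of 27267 genes with a probe, and 101 of 34127 probes.

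Cells were stained with ALDEFLUOR, a fluorescent substrate of aldehyde dehydrogenase, and sorted into a bright (ALDH+) and a dim (ALDH-) population, with the gate set by the inhibitor DEAB. The comparison asked which transcripts differed between cells with high and low activity of this enzyme, which the study uses to isolate cancer stem-like cells. RNA of 1 sort of each population was labelled from an oligo dT primer and hybridized to 2 two-color arrays with the dyes exchanged. Array 1 carried ALDH+ cells in Cy5 and ALDH- cells in Cy3, and array 2 carried ALDH+ cells in Cy3 and ALDH- cells in Cy5. Both arrays held the same pair of RNA extracts and lay on 1 slide, so they were counted as 1 replicate, no test was possible, and the spread between them is technical. The labels name no treatment of either population, and the cells were grown in DMEM/F12 with fetal bovine serum. A transcript present in fewer cells of a population and a transcript present at a lower level in each cell cannot be told apart in such extracts.

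P450 enzymes are heme proteins that insert an oxygen atom into drugs, carcinogens, steroids, bile acid precursors and fatty acids, using electrons from a reductase. UGT enzymes then attach glucuronic acid from UDP-glucuronate, and SULT enzymes attach sulfate from the donor PAPS, which makes the products more soluble. The families with the lowest numbers handle mostly foreign compounds and are best known from liver and intestine, whereas other families make or break down sterols, steroid hormones and vitamin D.

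All 7 epithelial and clear cell markers examined, with EPCAM, KRT7, KRT8, KRT18, PAX8 and CDH1 among them, were measured, with log2 ratios of ALDH+ over ALDH- cells from -0.74 for PAX8 to 0.057. Of markers of other cells, 2 of 4 leukocyte genes (CD14 at 0.45 and PTPRC at 0.035), 1 of 3 endothelial genes (CDH5 at 0.19), 1 of 4 hepatocyte genes (SERPINA1 at -0.20) and 0 of 3 fibroblast genes were measured. ALB, TTR and APOB, which hepatocytes make in quantity, were not measured.

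The array reads each gene through a probe of 60 bases, and the ratio of a gene is only as specific as that probe. The following probes are shown because those of CYP1A1 and CYP27A1 read differences past 1.5-fold, and those of CYP51A1 and CYP2S1 read the next highest ratios of the P450 genes. Coordinates are those of the array design on hg19, and 30 bases of each probe are given 5′ to 3′. No part of them is marked.
CYP1A1, chr15:75012562-75012621, minus strand: ggtaaaacagggccacatagatgctgatgg
CYP51A1, chr7:91741463-91741495, minus strand, where the design places only 33 of the bases: tctgaaacaaggtccttgggagtaattaaa
CYP2S1, chr19:41713082-41713141, plus strand: agtcacccctttttaagcaccctgattcta
CYP27A1, chr2:219679951-219680010, plus strand: acccctttatcgcattgctgtccttgggta

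Of the 77 members, 26 were measured, meaning that in at least 1 population over 50% of the spots of a probe stood well above background on each array. That was 33.8% of the members, against 50.3% of all genes on the array. Among the members 20 were measured in both populations on both arrays. For CYP1A1, CYP2A13 and CYP4F12 the ALDH- signal was well above background on 1 array only, and the same held for the ALDH+ signal of CYP2C18, CYP2B6 and CYP2D6.

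The measured genes were 9 of 22 in P450 families 1 to 3, 4 of 13 in family 4, 3 of 7 of sterol and bile acid metabolism, 1 of 6 of steroid hormone synthesis and 1 of 2 other P450 genes. Neither CYP24A1 nor CYP27B1, grouped here as vitamin D enzymes, was measured. CYP2R1, also a vitamin D hydroxylase but counted in families 1 to 3, was measured. Both UGT1 genes and 3 of 8 UGT2 genes were measured, but none of UGT3A1, UGT3A2 and UGT8. Among the sulfotransferases, 3 of 12 were measured.

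The 51 genes that were not measured included CYP3A4, CYP3A5, CYP3A7 and CYP3A43, which make up the CYP3A family of broad drug metabolism. CYP1A2 and CYP2E1 of the liver, CYP1B1 of estrogen and carcinogen oxidation, and CYP19A1, the aromatase that makes estrogens, were also in this set. So were CYP7A1 and CYP8B1 of bile acid synthesis, CYP11A1, CYP11B1, CYP11B2 and CYP21A2 of the adrenal steroid pathway, and SULT1E1 and SULT2A1, which sulfate estrogens and DHEA. Signals of 13 of these genes were well above background in some population and array, and those of 38 nowhere. Their probes had median signals of 53.9 (array 1) and 139.5 (array 2) in ALDH+ cells and 147.0 and 50.4 in ALDH- cells. The negative control spots had medians of 45.1 and 127.2 in ALDH+ cells and 135.2 and 43.1 in ALDH- cells, with Cy3 the higher dye on each array. A probe at this level gives no statement on whether its gene is expressed.

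**Figure D1:**
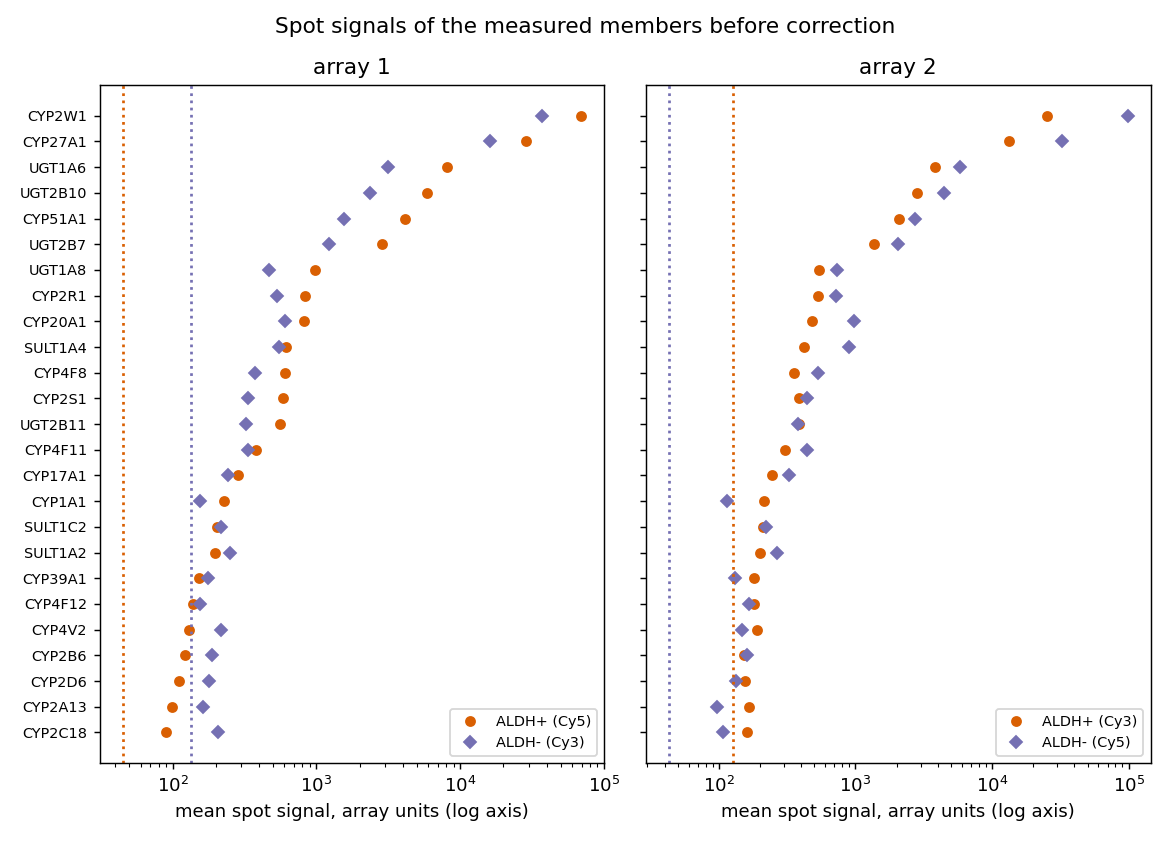
Mean spot signals (array units, log axis) of measured members before background correction on array 1 (left) and array 2 (right), with ALDH+ cells as orange circles and ALDH- cells as purple diamonds. Dotted lines mark the median of the negative control spots in each channel. CYP2W1 and CYP27A1 have the highest signals, whereas CYP2C18 and CYP2A13 lie near the lines, with raw values that also carry the difference between the dyes.

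No member differed by 2-fold in either direction, against 29 genes (0.211% of 13720 measured) higher and 97 (0.707%) lower by that measure over the whole array. At 1.5-fold, CYP1A1 was the only member higher in ALDH+ cells, where 1.5% of all genes were higher. By that measure 3 members were lower, CYP2W1 and CYP27A1 among them, where 4.61% of all genes were lower. The counts moved with the processing. By the ratio of the array software 1 member was higher and 2 were lower by 2-fold, and 8 were lower by 1.5-fold, whereas median centring left 1 lower by 1.5-fold. In log2 ratios the median of the 26 members was -0.038, against -0.0030 for all measured genes. The ratio of the members had the same sign on both arrays for 21 of 26 (80.8%), against 69.8% of all genes. It was larger than the SD of the arrays for 17 members. Over the members the arrays correlated with Pearson's r of 0.77, a description of genes measured in the same extracts, and over all genes with r of 0.69.

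The families differed in sign. All 5 UGT genes were higher in ALDH+ cells (median log2 ratio 0.18), under each alternative normalization as well. All 3 SULT genes were lower (median -0.40), although SULT1C2 changed sign on array 1 alone and in the mean over its probes. Of the CYP genes 7 were higher and 11 lower (median -0.13), and 8 were higher with median centring. Over the whole array 49.5% of genes were above 0. The UGT and SULT genes do not give independent counts, because probes of several of them read the RNA of more than 1 gene, as described with the probes.

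**Figure D2:**
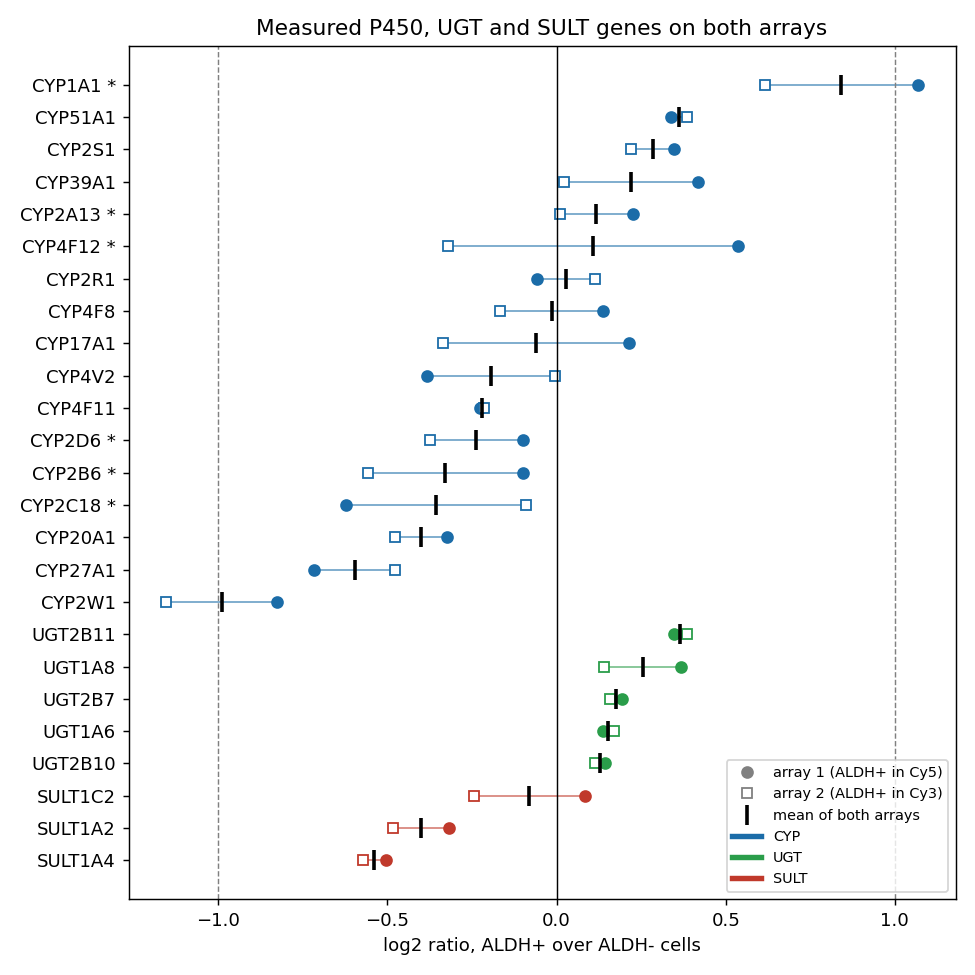
Log2 ratios of ALDH+ over ALDH- cells for measured members, with array 1 as filled circles, array 2 as open squares and their mean as a black bar, in blue for CYP, green for UGT and red for SULT. Dashed lines mark 2-fold, and an asterisk marks genes well above background on only 1 array in 1 population. All UGT genes lie right of 0 on both arrays, SULT1A4 and SULT1A2 lie left of it on both, and CYP genes spread from -0.99 to 0.84.

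CYP1A1, the aryl hydrocarbon hydroxylase and the best known target of the receptor AHR, had the highest ratio of the members. Its spot signals were 227 in ALDH+ and 155.5 in ALDH- cells on array 1, and 215 and 115 on array 2. The log2 ratios were 1.07 and 0.62, with a mean of 0.84 (SD 0.32 over the arrays), or 1.79-fold higher in ALDH+ cells. The ALDH+ signal was higher on both arrays, but all of these signals were low and that of ALDH- cells was well above background on 1 array only. With signal required in both populations, CYP1A1 was left out and 0 members were higher by 1.5-fold. The ratio of the array software gave a mean of 1.72 for CYP1A1.

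Other genes under the same receptor were set beside CYP1A1. AHR itself was at -0.020 and its partner ARNT at -0.12. Of 9 AHR targets outside the P450 family 3 were measured. TIPARP, a feedback inhibitor of AHR, was higher (0.90 and 0.78, mean 0.84), and SLC7A5, an amino acid transporter, was lower (-0.81 on array 1, mean -0.90). ALDH3A1, an aldehyde dehydrogenase, had no steady sign, at 0.40 and -0.033 (mean 0.18, SD 0.30). Its ALDH- signal was well above background on 1 array only. NQO1 and AHRR were not measured. CYP1A2 and CYP1B1, P450 targets as well, were not measured either. By their means, TIPARP and ALDH3A1 of this list lay above 0 and SLC7A5 below it. CYP2S1, a member also known to respond to AHR, was above 0 (mean 0.28) and is described below.

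The CYP1A1 promoter is shown because AHR and ARNT bind a short core of GCGTG. These are the 100 bases before the start site in RefSeq (GRCh38.p14), on the minus strand, with the core in capitals.
CYP1A1 promoter, chr15:74725529-74725628: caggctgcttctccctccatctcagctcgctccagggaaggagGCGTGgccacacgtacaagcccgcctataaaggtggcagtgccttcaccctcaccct
In the window of 300 bases around the start, GCGTG, searched on both strands, was found once, 57 bases before the start. For TIPARP, the first of its promoters held it at 208 and 142 bases before the start, and its other listed promoters did not hold it. The same letters were in 36.5% of 35116 promoters of that length, so a match is common and is no evidence of binding. Among 56 member genes with a promoter listed, the first one held them for 15 (26.8%).

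CYP2S1, a P450 found outside the liver and also known as an AHR-responsive gene, had log2 ratios of 0.35 and 0.22 (mean 0.28). Its probe was printed in 10 spots, and all 10 spots kept on array 1 (SD 0.076) and all 8 on array 2 (SD 0.045) were above 0. The other measured CYP2S1 probe gave 0.43. CYP2S1 was thus higher in ALDH+ cells by each probe, and by less than 1.5-fold.

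CYP2W1, a P450 known from tumors of the colon and nearly absent from adult tissues, had both the brightest spot and the lowest ratio of the members. Its signals were 69764 in ALDH+ and 37411 in ALDH- cells on array 1, and 25201 and 98118 on array 2. The log2 ratios were -0.83 and -1.15 (mean -0.99, SD 0.23), or 1.99-fold lower in ALDH+ cells. The mean was -0.53 with median centring in place of the intensity-dependent loess.

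The sequence of the CYP2W1 probe was taken to carry part of an Alu element, a repeat found in many transcripts. No annotation of repeats was used, and shared runs were looked for after its values were seen. A run of at least 15 bases of this probe was present on the same strand in probes of 13 other genes, of which 10 were measured. All 10 had a log2 ratio below 0 (median -0.68, range -1.02 to -0.41), and 7 were lower by 1.5-fold. Over all measured genes 49.5% were above 0 and 4.61% were lower by 1.5-fold. Another 9 probes held such a run on the opposite strand, and all 9 were lower, with a median of -0.54 (-0.59 to -0.38). Of the 31 measured member probes, 7 shared a run of 15 bases on the same strand with the probe of a gene that was no member. On that strand CYP2W1 shared with 13 genes and each of the others with 1. On the opposite strand the next highest number after the 9 of CYP2W1 was 5, for CYP2B6.

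FUT6, a fucosyltransferase, and GCLM, a subunit of the enzyme of glutathione synthesis, were among the genes on the same strand. FUT6 had signals of 89723 and 42450 on array 1, and 27363 and 122207 on array 2, in ALDH+ and ALDH- cells, and a mean log2 ratio of -1.02. GCLM had a mean of -0.61. CYP2W1 lay within the range of the other genes whose probes share such a run on the same strand. Their probes were not examined with median centring, and the part of other transcripts in the CYP2W1 signal was not tested. Without CYP2W1, 2 members were lower by 1.5-fold and the CYP median was -0.062.

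**Figure D3:**
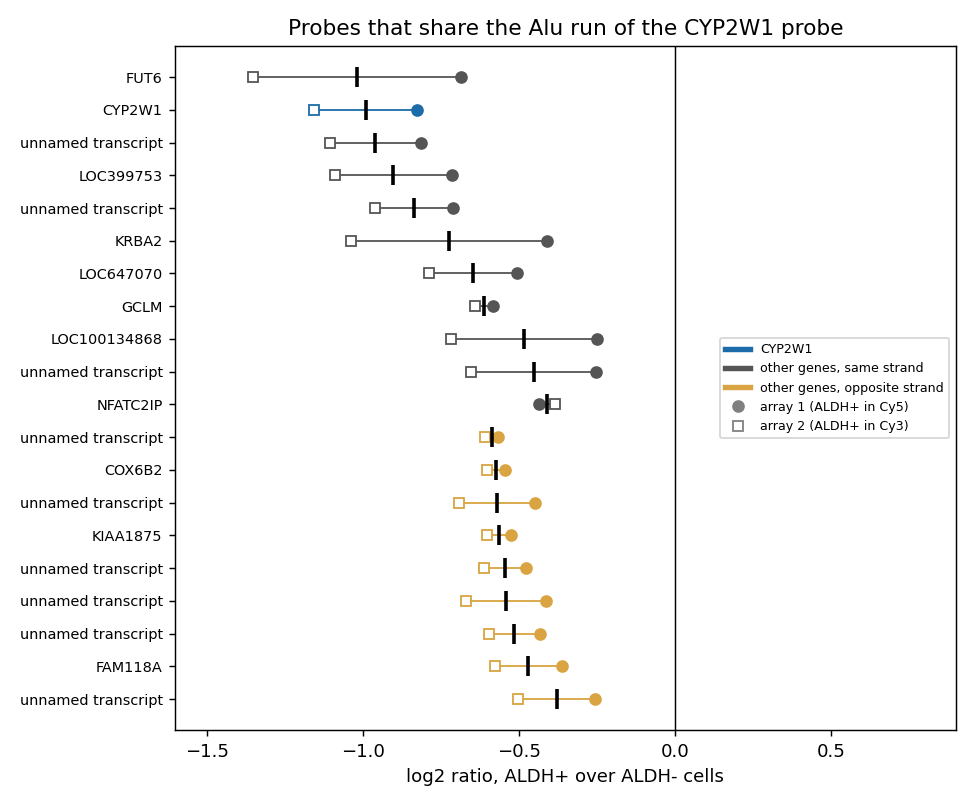
Log2 ratios of ALDH+ over ALDH- cells for CYP2W1 (blue) and for measured probes of other genes that share at least 15 bases with the CYP2W1 probe, on the same strand (grey) or the opposite strand (yellow). Filled circles are array 1, open squares array 2 and black bars their mean. All probes plotted lie below 0 on both arrays.

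Other drug-metabolizing P450 genes had small or uneven ratios. CYP2C18, an enzyme of the CYP2C group with low activity in liver, was at -0.62 and -0.090. CYP2B6, which activates cyclophosphamide, was at -0.10 and -0.56. CYP2D6, which converts codeine to morphine, was at -0.10 and -0.38 by a probe whose accessions also name the pseudogene CYP2D7. In each of these the ALDH+ signal was well above background on 1 array only. CYP2A13, a nicotine-metabolizing enzyme of the airway, was at 0.23 and 0.0094, and CYP2R1, the vitamin D hydroxylase of the liver, at -0.058 and 0.11.

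Among the genes of sterol and bile acid metabolism, CYP27A1 and CYP51A1 went in opposite directions. CYP27A1, the mitochondrial sterol hydroxylase of bile acid synthesis, had signals of 28680 in ALDH+ and 16140.5 in ALDH- cells on array 1, and 13313 and 32292 on array 2. Its log2 ratios were -0.72 and -0.48 (mean -0.60, SD 0.17), or 1.51-fold lower in ALDH+ cells. With median centring the mean was -0.22, and CYP27A1 no longer passed 1.5-fold.

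CYP51A1, the lanosterol demethylase of cholesterol synthesis, had signals of 4118 and 1547 on array 1 and 2099 and 2737 on array 2, in ALDH+ and ALDH- cells. Its log2 ratios were 0.34 and 0.39 (mean 0.36, SD 0.034), among the closest pairs of values of the members. CYP39A1, an oxysterol hydroxylase of bile acid synthesis, was at 0.42 and 0.023, and its arrays differed more than its mean. CYP7A1, CYP7B1, CYP8B1 and CYP46A1, the other genes of this set, were not measured.

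CYP17A1, the hydroxylase and lyase of androgen synthesis, was the only measured gene of the steroid hormone set, at 0.21 and -0.34. In family 4, which hydroxylates fatty acids at the end of the chain, CYP4F11 was at -0.23 and -0.21 (mean -0.22), CYP4V2 at -0.38 and -0.0041, CYP4F8 at 0.14 and -0.17, and CYP4F12 at 0.54 and -0.32. Of these, CYP4F11 alone had arrays within 0.1 of each other, and CYP4F12, with the opposite signs, had the largest dye-dependent part of the members (0.43).

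CYP20A1, a P450 with no known substrate, was read by a pair of probes that disagreed. The brighter probe, which starts at base 10602 of the transcript, gave -0.32 and -0.48 (mean -0.40). The probe at base 1546 gave 0.027 and 0.35 (mean 0.19). The difference of 0.59 between them was the only one above 0.5 among the 5 members with several measured probes, so the lower ratio counted for this gene holds for its brighter probe only.

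The probes of the UGT and SULT genes are shown because several of them read more than 1 gene. All are on hg19, 5′ to 3′ in full, with no part marked, and each holds at least 1 reading frame without a stop codon.
UGT2B7, chr4:69978384-69978443, plus strand: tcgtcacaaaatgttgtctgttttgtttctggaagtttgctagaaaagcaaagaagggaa
UGT2B10, chr4:69696473-69696532, plus strand: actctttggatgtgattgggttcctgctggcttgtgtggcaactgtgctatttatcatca
UGT2B11, chr4:70074103-70074162, minus strand: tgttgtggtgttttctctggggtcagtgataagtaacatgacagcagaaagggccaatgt
UGT1A6, dimmer probe, chr2:234676521-234676580, plus strand: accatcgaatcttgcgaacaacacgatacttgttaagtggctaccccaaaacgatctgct
SULT1A4, brighter probe, chr16:29475548-29475607, plus strand: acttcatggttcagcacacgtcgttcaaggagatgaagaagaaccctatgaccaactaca
SULT1A4, dimmer probe, chr16:29474684-29474743, plus strand: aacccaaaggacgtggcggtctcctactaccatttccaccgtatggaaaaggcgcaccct
The UGT1A genes each have their own start exon and share their last exons, so the UGT1A6 and UGT1A8 probes are annotated with 4 UGT1A genes each. The UGT2B10 probe also names UGT2B11, the UGT2B11 probe also names UGT2B28, and the brighter SULT1A4 probe names SULT1A1 and SULT1A3 too. In all, 12 of the 101 member probes named several genes.

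UGT2B7, which glucuronidates morphine and estrogens, had signals of 2848 in ALDH+ and 1231 in ALDH- cells on array 1, and 1363 and 2049 on array 2. Its log2 ratios were 0.19 and 0.16 (mean 0.18, SD 0.025). UGT2B11, a relative of little known substrate range, had the highest ratio of the UGT genes at 0.35 and 0.38 (mean 0.37), and UGT2B10, which acts on nicotine and other amines, was at 0.14 and 0.11 (mean 0.13). These 3 genes had close values on the arrays, all of them above 0 and none near 1.5-fold.

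UGT1A6, named for the enzyme that conjugates simple phenols, was at 0.14 and 0.17 (mean 0.15), with signals of 8072 and 3129 on array 1 and 3831 and 5837 on array 2, in ALDH+ and ALDH- cells. Its dimmer probe gave 0.45 and 0.12 (mean 0.28), and UGT1A8, named for an enzyme of the gut, was at 0.37 and 0.14 (mean 0.25). These values cannot be given to single UGT1A enzymes. With median centring the UGT ratios were from 0.32 to 0.42 with a median of 0.34.

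The SULT genes had lower ratios in ALDH+ cells. SULT1A4, which with the identical SULT1A3 sulfates dopamine and other catecholamines, was at -0.50 and -0.57 (mean -0.54), and its dimmer probe was at -0.27 and -0.65 (mean -0.46). The 300 bases of promoter of SULT1A3 and SULT1A4 in RefSeq differed at 0 positions, and the array does not separate these copies. Signals of the brighter probe were 616 and 549 on array 1, and 420 and 903 on array 2, in ALDH+ and ALDH- cells.

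SULT1A2, a phenol sulfotransferase, was at -0.32 and -0.48 (mean -0.40) by a probe printed in 10 spots, whose 30 bases on the minus strand at chr16:28603267-28603326 of hg19 follow.
SULT1A2: agagggagtgtgcgaatcaagcctgaccaa
All 9 spots kept on array 1 (SD 0.067) and all 10 on array 2 (SD 0.13) were below 0. SULT1C2, a sulfotransferase of the stomach and kidney, was at 0.084 and -0.24, and its other probe gave a mean of 0.098, so it had no steady sign.

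**Figure D4:**
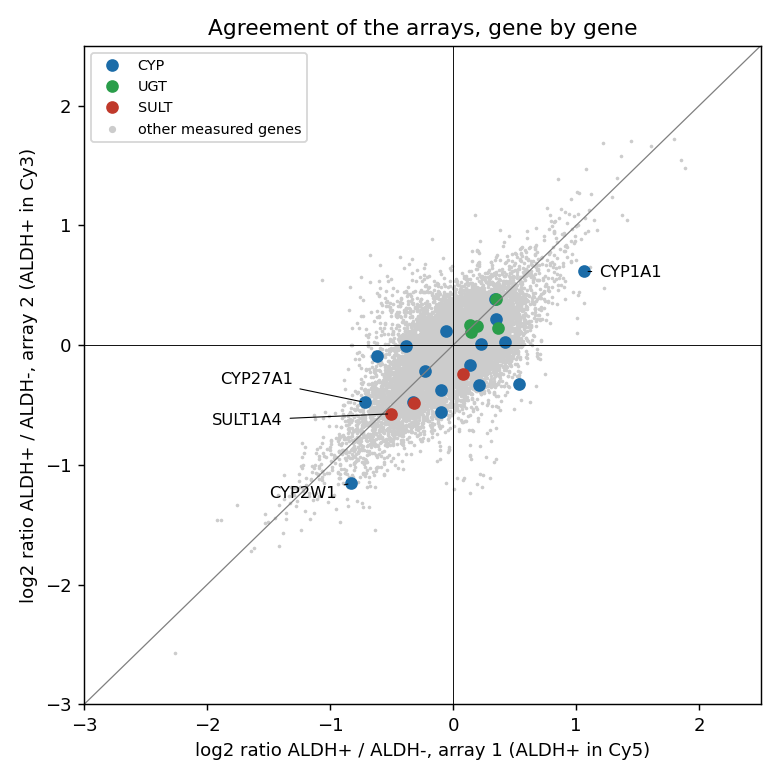
Log2 ratios of ALDH+ over ALDH- cells on array 1 (x axis) and array 2 (y axis) for the measured members (CYP blue, UGT green, SULT red) and for other measured genes (grey), with the line of equality. CYP1A1 lies at 1.07 and 0.62, CYP2W1 at -0.83 and -1.15, and most members lie where both arrays have the same sign.

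The partners of these enzymes were described by lists of their own. The list for the P450 enzymes held electron carriers and their reductases, the heme-binding proteins PGRMC1, PGRMC2 and NENF, and ALAS1 of heme synthesis. Of its 12 measured genes, 10 were higher and 2 lower in ALDH+ cells (median 0.21 and range -0.11 to 0.83 in log2 ratios), and 1 was higher by 1.5-fold. Over all measured genes 49.5% were above 0 and 1.5% were higher by 1.5-fold. That gene was CYB5A, the cytochrome that passes an electron to P450 enzymes and aids the lyase step of CYP17A1, at 0.67 and 0.98 (mean 0.83). POR, the reductase that every microsomal P450 depends on, was at 0.32 and 0.11 (mean 0.21). PGRMC1, a heme-binding partner of P450 enzymes, was at 0.35. The measured P450 genes themselves had a median of -0.13, or -0.062 without CYP2W1.

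The list for UDP-glucuronate had 4 of 6 genes higher (median 0.063, range -0.13 to 0.30). UGP2 (0.056), UGDH (-0.13) and SLC35D1 (0.070) make or carry this donor. The list also held UXS1 (-0.026), which uses it up, and the related transporters SLC35B1 (0.22) and SLC35D2 (0.30). The list for PAPS had 6 of 8 genes higher (median 0.11, range -0.12 to 0.37). Among the 6 were BPNT1 (0.37) and BPNT2 (0.0028), phosphatases that act on the spent donor and do not supply it. PAPSS1 and PAPSS2, the synthases of the sulfate donor, were at -0.12 and 0.35. Genes that remove the conjugates, with GUSB and the sulfatases, had 5 of 6 higher (median 0.049). Beside these counts, 49.5% of all measured genes were above 0. None of these genes was past 1.5-fold in either direction.

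Of 27 nuclear and xenobiotic receptors that control these families, 15 were measured, with 7 higher and 8 lower (median -0.020), and none was past 1.5-fold. The lowest were PPARA, the fatty acid receptor that drives family 4, at -0.43, and RXRA, its partner, at -0.38. NR1I2 (PXR) and NR1I3 (CAR), the main drug sensors of liver, and HNF4A were not measured. Of the P450 genes with names of their own, TBXAS1, the thromboxane synthase, was at 0.31 and PTGIS, the prostacyclin synthase, was not measured.

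**Figure D5:**
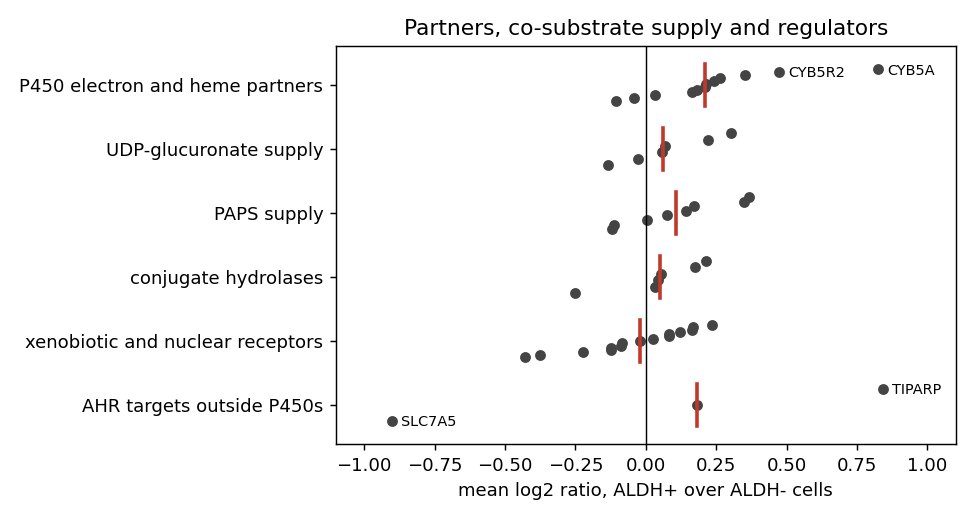
Mean log2 ratios of ALDH+ over ALDH- cells for measured genes of 6 lists of partners, donors and regulators, with each gene as a point and the median of the list as a red bar. CYB5A at 0.83, TIPARP at 0.84 and SLC7A5 at -0.90 lie past 1.5-fold, and the receptors center on -0.020.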

How the data were processed

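A dye-swapped pair of two-color arrays (2 arrays, counted as 1 replicate) carried RNA of ALDH+ and ALDH- cells. The labels give RMG1 as the cell line, which is used here, although the methods of the study name AMOC2. Per array, the authors deposited spot intensity and local background values that were not normalized, as read by Feature Extraction 10.7.3.1 per the file headers (8.5.1.1 per the submitters' processing notes). The log10 ratio of that software, background-subtracted and dye-normalized, was deposited as well, together with a table that joins it over both arrays. The joined table differed from it by at most 1.7e-09 on the log2 scale over 86236 values. Its 4 further columns of signals were not used.

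With limma 3.58.1 in R 4.3.3, mean signals were corrected for the median local background by normexp (offset 50) and normalized by loess within each array, without control spots and outlier spots (531 and 519 of 43118 gene spots on the arrays). No gene spot was saturated (0). The ratio of array 2 was turned to ALDH+ over ALDH- cells, spots of a probe were averaged, and a log2 ratio is the mean of both arrays. A probe was called measured by the rule of 50% of its spots given in the report, and a gene was its brightest measured probe. Python 3.11.15, numpy 2.4.6, pandas 2.3.3 and matplotlib 3.10.9 did later steps. The normalization step was run on simulated spots with known ratios. These spots had no difference in signal between the dyes, so the run did not test the removal of such a difference. Names follow the array, and RefSeq (GRCh38.p14) matched 25422 probes, 100 of the 101 member probes among them. It gave promoters and the genes an accession stands for. No annotation of hg19 was used, so exon and UTR positions of probes are not given.

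The members and lists were chosen with earlier results of these data known. Genes named are members past 1.5-fold, the 3 highest and 3 lowest of each family, members whose probes differ by over 0.5, partner genes past 1.5-fold and POR. Of these, 1 gene, its values and some probe sequences are not reported here and not plotted. Others were named to account for every measured member or for their role. With 1 sort of each population no p-value is given, and the number of arrays limits the precision. Alternatives covered the background correction, the centring, the software's ratio, the joined table, each array alone, the filter and the probe rule, and leaving out CYP2W1, which was chosen after seeing the data.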

Additional observations from a re-analysis of the deposited data

How the results depend on the processing

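No paired analysis was possible because both arrays carried the same 1 pair of extracts, so no test could be made. Of 179 values of 15 named genes under 12 alternatives, 31 moved beyond the spread (1 SD) of the arrays and 2 changed sign, both of SULT1C2. The value of 1 array alone could not move by this rule, because it always lies within 1 SD of the mean. The settings of the filter left each named gene unchanged or out. The joined table repeats the software's ratio, so its moves were counted again. The count of 31 is therefore no measure of stability. With no background correction 1 member was lower by 2-fold. With an offset of 10, 1 was higher and 1 lower by 2-fold. The software's ratio and the joined table alike gave 1 higher and 2 lower by 2-fold, 8 lower by 1.5-fold, a UGT median of 0.21 and a SULT median of -0.63. Median centring gave 1 lower by 1.5-fold and a UGT median of 0.34, where all genes had medians of 0.56 on array 1, -0.44 on array 2 and 0.071 in the mean. Leaving out 1 array at a time gave from 0 to 1 member higher and from 0 to 1 lower by 2-fold, which was CYP1A1 with array 1 alone and CYP2W1 with array 2 alone. Without the filter on dim probes the medians were -0.019 for CYP, 0.12 for UGT and -0.054 for SULT. With signal required in both populations, 0 members were higher by 1.5-fold. With the mean over probes the UGT median was 0.22. The cause of these shifts was not tested.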
